A study of Mus musculus with 4 samples.

Results

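The cadherin and protocadherin genes of the mouse were described in thymocyte chromatin. All RefSeq protein-coding genes of the mm10 assembly whose symbol begins with Pcdh or Cdh were taken, which gave 97 of 21887 genes. Of these, 40 are single genes and 57 lie in 3 gene clusters on chromosome 18, with 14 genes in Pcdha, 22 in Pcdhb and 21 in Pcdhg. The measurement was ATAC-seq, in which the transposase Tn5 cuts and tags open DNA, and the deposited data are lists of peaks, the stretches of the genome where such cuts pile up. Cells were sorted ex vivo from thymus of the strain C57BL/6J, at 5 to 7 weeks of age. The DN samples are CD4-CD8- double negative cells, the early stage, gated as CD25+ and either CD44- or CD44+, and the DP samples are CD4+CD8+ double positive cells, the stage that follows. Each group had 2 samples, called DN 1, DN 2, DP 1 and DP 2 here. Separate mice are not named in the labels, and any spread between the samples of a group can therefore be technical. All 4 samples are wild type, and no treatment is labelled.

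Classical cadherins are calcium-dependent adhesion proteins that bind the same or a related cadherin on the next cell and hold on to actin through catenins. Type I cadherins such as E-cadherin join epithelial, neural and muscle cells, type II cadherins are best known from neurons, endothelium and mesenchyme, and most protocadherins act in the nervous system. In the 3 clusters, each neuron is known to use its own small set of promoters, chosen with the help of CTCF and cohesin. In the thymus E-cadherin is best known from the epithelium, where it is a ligand for an integrin that T cells carry.

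A peak was given to a member when its midpoint lay inside the gene or within 20 kb of either end, and that stretch is called the gene's window. The lists held 38801, 33123, 39709 and 70376 peaks in DN 1, DN 2, DP 1 and DP 2 on the chromosomes used. Because the lists differ in length, shares are given as peaks per 10000 peaks of a list. Peaks of the 4 lists that shared at least 1 bp were merged into regions. A region held by both DN lists and neither DP list is DN-only, one held by both DP lists and neither DN list is DP-only, and one held by all 4 lists is shared. The strength of a peak is given as its rank, the percentage of peaks in its list whose authors' p-value was as small or smaller, so that a low rank is a strong peak and a rank of 100% is a peak tied at the largest p-value of the list. The farthest peaks counted were 19471, 19760, 19446 and 19471 bp from a gene, and the nearest not counted 20209, 24146, 20209 and 20041 bp, in the order of the lists. In a bulk sample, fewer cells with an open site and a less open site in each cell cannot be told apart. Read numbers are not part of the lists, so the depth behind a peak is unknown, and where a list holds no peak the site may be closed or merely too thinly sequenced.

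Promoters overlapped by a peak in both lists of a group are shown here, since they let the sequence be read beside the peaks. The sequences are as RefSeq gives them for GRCm38.p6, the same assembly as mm10. Each runs from 250 bases before the start to 50 after it, 5′ to 3′ on the strand of the gene, in lower case with every CpG in capitals. The first set was overlapped by a peak in both DN lists. These are Pcdh8 (chr14:79771263-79771562, minus strand), Pcdh9 (chr14:93890630-93890929, minus strand), Pcdh10 (chr3:45378148-45378447, plus strand), Pcdh17 (chr14:84443313-84443612, plus strand) and Pcdh19 (chrX:133688944-133689243, minus strand).
Pcdh8: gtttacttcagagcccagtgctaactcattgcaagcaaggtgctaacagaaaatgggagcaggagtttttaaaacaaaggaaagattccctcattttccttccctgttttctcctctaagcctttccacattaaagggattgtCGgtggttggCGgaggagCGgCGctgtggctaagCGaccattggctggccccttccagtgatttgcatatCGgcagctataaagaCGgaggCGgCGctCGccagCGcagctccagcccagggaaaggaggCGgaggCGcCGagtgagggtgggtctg
Pcdh9: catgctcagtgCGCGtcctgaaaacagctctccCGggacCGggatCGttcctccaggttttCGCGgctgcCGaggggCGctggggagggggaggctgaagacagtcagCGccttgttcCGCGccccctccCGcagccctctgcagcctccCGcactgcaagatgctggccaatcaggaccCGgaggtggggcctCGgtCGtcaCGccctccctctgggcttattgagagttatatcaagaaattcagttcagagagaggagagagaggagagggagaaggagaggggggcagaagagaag
Pcdh10: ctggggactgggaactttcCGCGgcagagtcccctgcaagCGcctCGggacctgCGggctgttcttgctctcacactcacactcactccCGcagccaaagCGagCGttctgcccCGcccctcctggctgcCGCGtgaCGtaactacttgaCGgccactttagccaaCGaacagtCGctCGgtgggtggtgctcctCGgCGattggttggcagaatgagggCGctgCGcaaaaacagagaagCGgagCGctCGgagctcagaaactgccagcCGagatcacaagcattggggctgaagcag
Pcdh17: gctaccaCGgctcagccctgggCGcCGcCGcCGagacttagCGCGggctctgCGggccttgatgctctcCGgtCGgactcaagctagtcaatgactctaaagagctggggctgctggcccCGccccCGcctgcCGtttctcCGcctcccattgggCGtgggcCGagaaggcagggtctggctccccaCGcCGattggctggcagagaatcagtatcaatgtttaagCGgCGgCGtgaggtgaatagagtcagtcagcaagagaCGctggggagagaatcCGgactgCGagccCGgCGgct
Pcdh19: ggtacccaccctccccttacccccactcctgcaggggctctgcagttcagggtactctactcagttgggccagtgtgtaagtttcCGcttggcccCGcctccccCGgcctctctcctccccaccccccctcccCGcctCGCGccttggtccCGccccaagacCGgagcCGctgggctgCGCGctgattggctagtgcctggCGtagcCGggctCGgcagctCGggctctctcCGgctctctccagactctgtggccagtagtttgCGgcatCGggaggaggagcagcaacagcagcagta

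The second set had a peak over the start in both DP lists and in neither DN list, and comprises Cdh24 (chr14:54641315-54641614, minus strand) and Cdh15 (chr8:122848124-122848423, plus strand). Pcdh18 (chr3:49757267-49757566, minus strand) is shown for contrast, as a promoter with many CpGs within 1000 bp of which no list had a peak.
Cdh24: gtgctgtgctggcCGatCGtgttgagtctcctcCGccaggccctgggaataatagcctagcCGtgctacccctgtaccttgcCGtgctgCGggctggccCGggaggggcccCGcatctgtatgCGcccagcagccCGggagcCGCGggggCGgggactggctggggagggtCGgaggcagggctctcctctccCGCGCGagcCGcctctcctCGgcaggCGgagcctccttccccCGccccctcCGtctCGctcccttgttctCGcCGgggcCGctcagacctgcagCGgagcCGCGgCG
Cdh15: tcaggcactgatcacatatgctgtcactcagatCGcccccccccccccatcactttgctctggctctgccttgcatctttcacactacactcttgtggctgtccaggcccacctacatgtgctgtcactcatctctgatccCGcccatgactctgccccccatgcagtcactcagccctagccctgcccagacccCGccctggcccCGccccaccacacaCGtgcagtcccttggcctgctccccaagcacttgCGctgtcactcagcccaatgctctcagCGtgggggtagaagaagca
Pcdh18: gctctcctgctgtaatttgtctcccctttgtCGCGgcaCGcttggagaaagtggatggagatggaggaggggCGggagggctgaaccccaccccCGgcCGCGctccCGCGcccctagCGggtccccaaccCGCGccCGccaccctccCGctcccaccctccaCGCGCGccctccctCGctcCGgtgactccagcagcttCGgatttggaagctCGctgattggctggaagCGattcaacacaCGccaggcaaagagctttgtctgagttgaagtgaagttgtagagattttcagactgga

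The promoter table held 30 starts of 27 single members and none of a clustered gene. The promoters of Pcdh8, Pcdh9, Pcdh10, Pcdh17 and Pcdh19 hold 14, 18, 24, 26 and 18 CpGs, against a median of 7 over 32851 promoters of all genes and 10 over the 30 member promoters. Cdh24 has 30 CpGs and Cdh15 has 7. Cdh10 and Cdh23 hold 2 and 5. They are not printed, since their peaks within 1000 bp of the start did not overlap the promoter. CpG number did not follow the peaks in a simple order, since Pcdh18 with 23 and Cdh22 with 38, the highest count among the member promoters, had no peak within 1000 bp of the start in any list. Both DN lists and neither DP list had a peak within 1000 bp of 3 member starts, those of Pcdh8 and 2 neighbouring starts of Pcdh9, beside 0.654% of all promoters. The opposite held for 3 starts, those of Cdh15, Cdh23 and Cdh24, beside 8.04% of all promoters. Cdh10 was the member with a peak near its start in all 4 lists. No list had a peak near 15 of the 30 member starts, and the same was true of 55% of all promoters.

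Short motifs were searched on both strands of these 300 bases. The E-box CAGGTG was in 8 of the 30 member promoters (26.7%) and in 20.2% of all promoters, and the E-box CAGCTG was in 13.3% and 16.3%. The 8 promoters with CAGGTG include every listed start of Cdh7, so they stand for fewer genes. The RUNX motif TGTGGT was in 20% of member promoters and 16.8% of all, and the GATA motif AGATAA was in 6.67% and 11.2%. The ETS motif CGGAAG was in 1 member promoter (3.33%), that of Cdhr4, and in 16.9% of all promoters. The TCF motif CTTTGA was in 10% of member promoters and 16.0% of all. The GC box GGGCGG was in 30% of member promoters and 35.7% of all, and Pcdh10, Pcdh17, Pcdh19, Cdh15, Cdh24 and Pcdh18 of the sequences above hold it. These letters are a description of the windows, with no test.

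Over all 40 single genes, peaks made up a larger share of both DN lists than of either DP list. Their windows held 208 and 224 peaks in DN 1 and DN 2, and 116 and 343 in DP 1 and DP 2. Per 10000 peaks this was 53.6 and 67.6 in the DN lists and 29.2 and 48.7 in the DP lists, or 60.6 ± 9.91 against 39.0 ± 13.8 (SD, n = 2 each). The groups did not overlap, and the difference of -21.6 (DP minus DN) had a two-sided exact permutation p of 0.333, the smallest that 2 lists against 2 allow. Over peaks in the members' own spans, away from gene ends and other genes, the shares were 38.7, 55.6, 15.1 and 39.9 per 10000, so that DN 1 was below DP 2 and the groups overlapped. Per megabase, the single windows held 17.6, 19.0, 9.82 and 29.0 peaks in DN 1, DN 2, DP 1 and DP 2, beside 18.3, 13.2, 21.2 and 32.0 over the windows of all protein-coding genes. The DP 1 density at the members was below, and that of DN 2 above, its own density over all genes. In the median, a single member had 3, 2.5, 2 and 3 peaks, and a protein-coding gene had 1, 1, 2 and 2. No single member was without a peak in all 4 lists, whereas 13.5% of all genes were. The single members are long genes, with a median span of 91.8 kb beside 17.2 kb over all genes, and across the 40 genes longer spans held more peaks, with a Spearman correlation of 0.663, 0.755, 0.339 and 0.681 in the 4 lists.

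**Figure D1:**
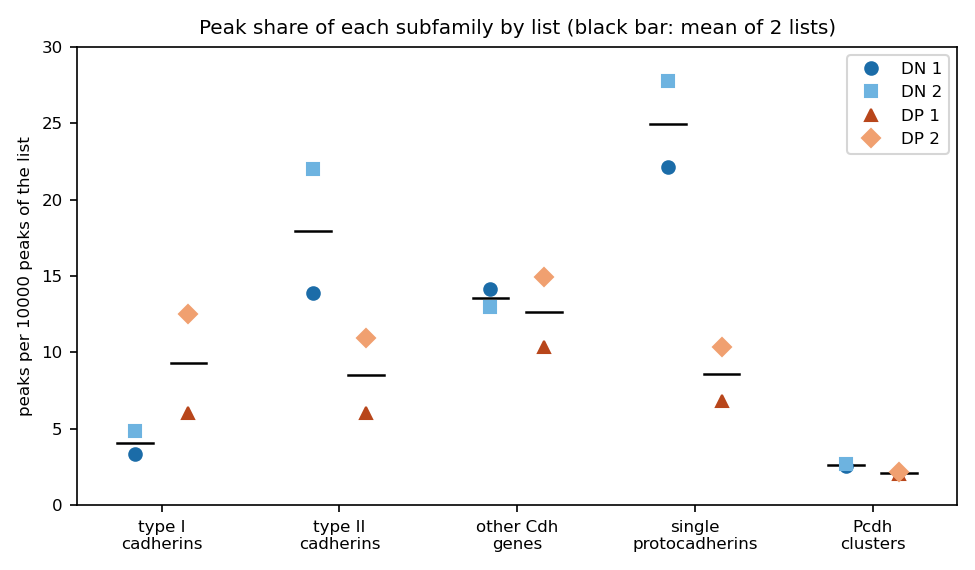
Peaks per 10000 peaks of a list for each subfamily of cadherin and protocadherin genes. Points are the 4 lists and black bars the mean of the 2 lists of a group. Single protocadherins and type II cadherins lay higher in both DN lists, type I cadherins lay higher in both DP lists but overlapped without Cdh4 (1.80, 2.42, 2.01 and 1.85 in DN 1, DN 2, DP 1 and DP 2), and the other Cdh genes overlapped.

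The subfamilies differed, as the plot of peak shares shows. Single protocadherins held 86, 92, 27 and 73 peaks in DN 1, DN 2, DP 1 and DP 2, which is 25.0 ± 3.97 per 10000 peaks in DN and 8.59 ± 2.53 in DP (SD, n = 2 each). Type II cadherins held 54, 73, 24 and 77 peaks, or 18.0 ± 5.74 against 8.49 ± 3.46 per 10000. In both families every DN list was above every DP list by share. Type I cadherins held 13, 16, 24 and 88 peaks, or 4.09 ± 1.05 against 9.27 ± 4.57 per 10000, and this higher share in DP came from Cdh4, with 75 of the 88 peaks in DP 2. The other type I genes together held 7, 8, 8 and 13 peaks, or 1.80, 2.42, 2.01 and 1.85 per 10000, and the groups overlapped, with an exact permutation p of 1. The remaining Cdh and Cdhr genes held 55, 43, 41 and 105 peaks, and their shares of 14.2, 13.0, 10.3 and 14.9 per 10000 overlapped between the groups. The exact permutation p was 0.333 for single protocadherins, for type II cadherins and for type I cadherins with Cdh4, and 1 for the last group.

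Gene by gene, 15 of the 40 single members (37.5%) had a higher share in both DN lists than in either DP list, beside 15.2% of all genes, and 8 (20%) had a higher share in both DP lists, beside 24.4%. The remaining 17 overlapped. Of the 19 members of 100 kb or longer, 9 were higher in DN and 3 in DP, beside 22.8% and 25.6% of all genes of that length. Of the 21 shorter members, 6 were higher in DN and 5 in DP, beside 14.3% and 24.3% of all shorter genes. By plain peak counts, with no allowance for list length, 8 members were higher in both DN lists, beside 3.09% of all genes, and 10 in both DP lists, beside 32.6%. The 8 were Cdh5, Cdh11, Cdh19, Pcdh8, Pcdh9, Pcdh15, Pcdh17 and Pcdh20, of which 5 are protocadherins.

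**Figure D2:**
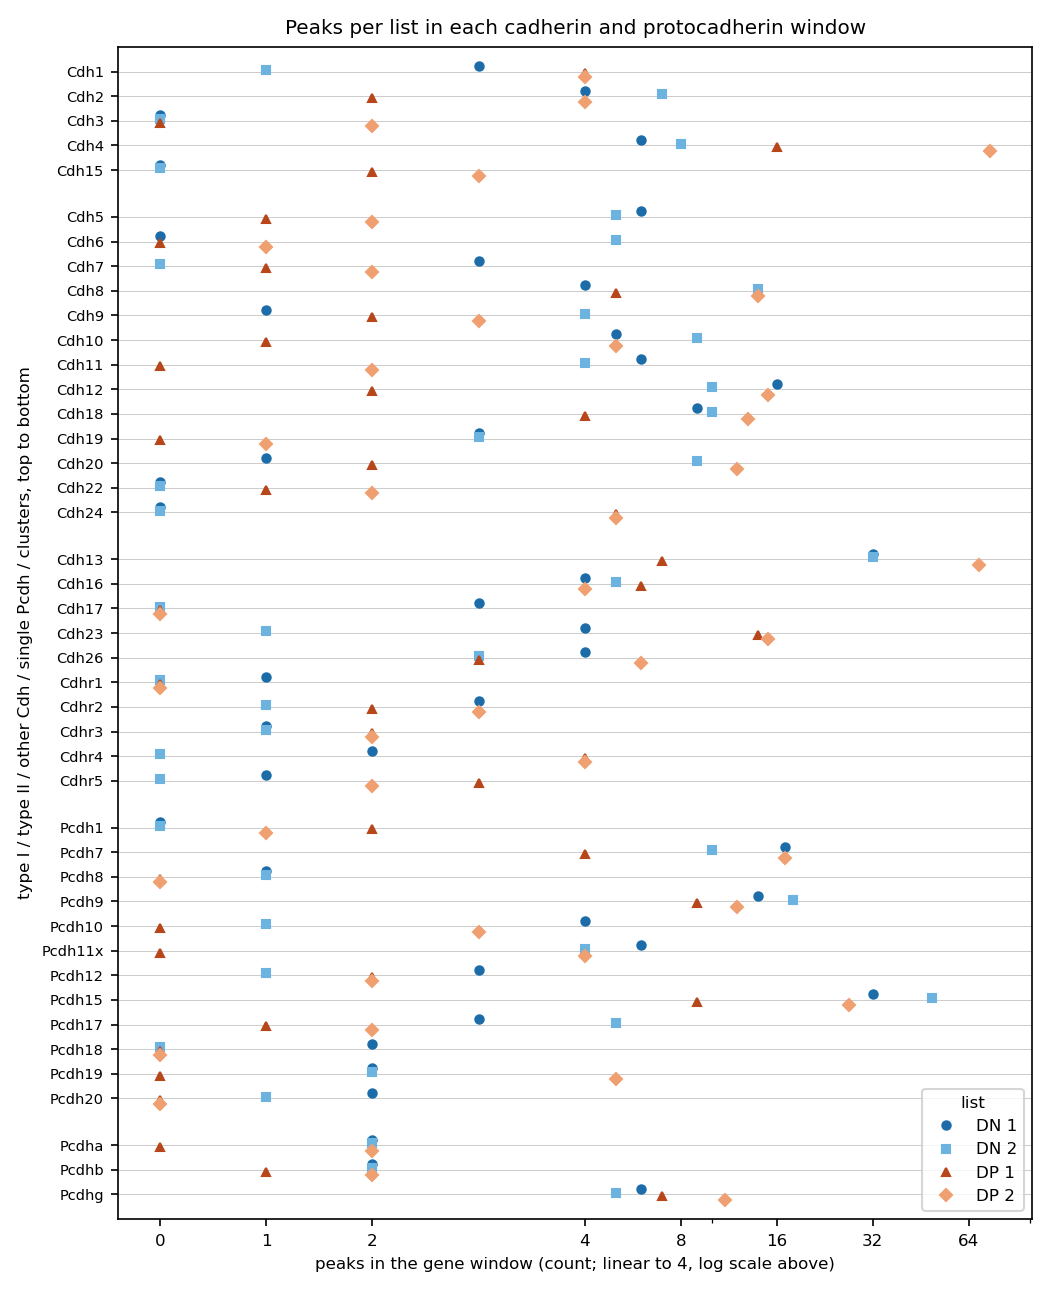
Peaks in the window of each single cadherin or protocadherin gene and of the 3 clusters, in each of the 4 lists. The axis is linear to 4 peaks and logarithmic above. Cdh23, Cdh24 and Cdh15 lay higher in both DP lists, Pcdh15, Pcdh17 and Cdh5 lay higher in both DN lists, and Cdh4 and Cdh13 reached 75 and 69 peaks in DP 2.

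Many of these peaks were weak and were not found again in the second list of their group. The windows of single members held 657 merged regions, of which 568 (86.5%) came from 1 list, beside 71.8% of all regions. Between 39.7% (DP 1) and 54.5% (DN 2) of member peaks were tied at the largest p-value of their list, beside 29.1% and 44.2% of all peaks in those lists. The DN lists shared 47 of their single-member regions, 24.9% of those in DN 1 and 23.5% of those in DN 2. The DP lists shared 44, 44.0% of those in DP 1 and 14.5% of those in DP 2. Regions in 1 list had a median width of 350 bp, DN-only regions 550 bp, DP-only regions 600 bp and shared regions 950 bp. The weight of the account below is therefore on regions that recurred.

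Of the 657 regions of the single members, 24 (3.65%) were DN-only, beside 2.51% of all regions. DP-only regions numbered 20 (3.04%), beside 7.44%, and shared regions 14 (2.13%), beside 7.39%. DN-only regions thus made up 54.5% of the 44 regions restricted to 1 stage, beside 25.2% genome-wide, 29.8% for regions over 1000 bp from a gene end and 8.53% for regions within 1000 bp of one. Where 1 list stands for its group, this share follows the lists: it was 85.5% without DN 1, 87.7% without DN 2, 8.39% without DP 1 and 31.1% without DP 2, beside 57.9, 65.9, 6.59 and 16.6% of all such regions. At least 1 DN-only region lay at 16 members (40%), beside 7.16% of all genes. For DP-only regions the count was 8 members (20%), beside 32.9%, and for shared regions 10 members (25%), beside 37.6%. Among members of 100 kb or longer, 9 of 19 had a DN-only region, beside 27.1% of all genes of that length, and 4 had a DP-only region, beside 41.1%. Among shorter members, 7 of 21 had a DN-only region, beside 4.68%, and 4 a DP-only region, beside 31.8%. These counts carry no test.

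**Figure D3:**
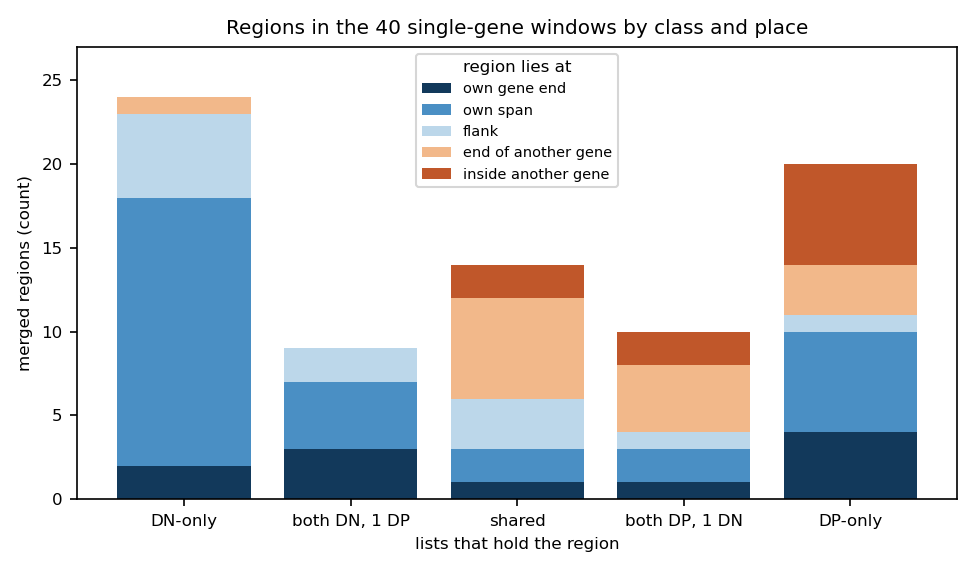
Merged regions in the 40 single-gene windows by the lists that hold them and by where they lie. Colours give the place of the region: within 1000 bp of an end of the member, elsewhere in its span, in the 20 kb flank, within 1000 bp of an end of another gene, or inside another gene. Of 24 DN-only regions, 23 lay away from other genes, while 9 of 20 DP-only and 8 of 14 shared regions lay at or inside one.

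The places of the regions are shown in the plot of regions by class and place. Of the DN-only regions, 16 were in the member's own span, 5 in its flank, 2 at its own end and 1 at the end of another gene. Of the DP-only regions, 6 were in the own span, 4 at the own end, 1 in the flank, 3 at the end of another gene and 6 inside another gene. With all regions at or inside other genes left out, 23 DN-only, 11 DP-only and 6 shared regions remained, and DN-only regions were 67.6% of those restricted to 1 stage. At or inside other genes the counts were 1, 9 and 8. With Cdh23 left out, which alone held 8 DP-only regions, the counts were 24 DN-only and 12 DP-only.

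The single protocadherins carried 11 of the DN-only regions and 1 DP-only region. Pcdh8, a delta protocadherin known from cell movements in the embryo, had 1 peak in each DN list and none in either DP list. Both peaks fell in 1 region at its start (chr14:79771051-79771700), with a rank of 13.6% in DN 1 and 100% in DN 2. The region covers the Pcdh8 promoter printed above. Pcdh20 had 2, 1, 0 and 0 peaks in DN 1, DN 2, DP 1 and DP 2, and its DN-only region (chr14:88466351-88466900) lay 1882 bp from the nearer gene end. Pcdh8 and Pcdh20 were the protocadherins with peaks in both DN lists and none in DP.

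Pcdh17, a protocadherin of axon bundles and synapses, had 3, 5, 1 and 2 peaks in DN 1, DN 2, DP 1 and DP 2. The region over its start (chr14:84443001-84443750) was held by both DN lists at a rank of 3.56% and 2.19%, among the strongest peaks of those lists, and by DP 2 at 44.5%. DP 1 had no peak there, so the region is not DN-only, although its rank was better in both DN lists than in DP 2. Another region, 2488 bp from the gene end (chr14:84440801-84441350), was DN-only.

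Pcdh10, a protocadherin that recruits actin regulators, had 4, 1, 0 and 3 peaks in DN 1, DN 2, DP 1 and DP 2. Its DN-only region (chr3:45378001-45378600) covers the printed promoter and ranked at 64.6% in DN 1 and 9.42% in DN 2. DP 2 held separate peaks 773 and 998 bp from the gene end, outside that region. Pcdh19, an X-linked gene known from epilepsy, had 2, 2, 0 and 5 peaks, with regions at its start (chrX:133688751-133689350) and 3231 bp from it, each held by both DN lists and DP 2. At both genes DP 2 held peaks near the start and DP 1 did not.

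Pcdh7, a protocadherin that binds the phosphatase inhibitor Set, had 17, 10, 4 and 17 peaks in DN 1, DN 2, DP 1 and DP 2. It held 4 DN-only regions, the most of any member, and none was DP-only. One lay 2020 bp outside the lower-coordinate end (chr5:57713851-57714400), directly beside a shared region (chr5:57714551-57715300). The other 3 lay inside the gene, and the best ranked of them (chr5:57756901-57757500) stood at 11.4% in DN 1 and 18.7% in DN 2. The DN-only regions of Pcdh7 thus lay both beside its shared region and further inside the gene.

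Pcdh9 had 14, 18, 9 and 12 peaks in DN 1, DN 2, DP 1 and DP 2. Of its recurrent regions, 1 was DN-only, and that region (chr14:93890551-93891100) covers the annotated start printed above, at a rank of 32.2% in DN 1 and 18.7% in DN 2. All 8 regions of DP 1 and all 12 of DP 2 at Pcdh9 were in that list alone. Pcdh15, a tip-link protein of inner-ear hair cells, had the most peaks of the protocadherins, 32, 49, 9 and 27. Of these, 19, 32, 8 and 21 were tied at the largest p-value, and its 2 DN-only regions ranked no better than 36.8% in either list. Pcdh11x had 6, 4, 0 and 4 peaks and no region in both lists of a group.

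The only DP-only region of a single protocadherin lay at Pcdh1, a gene of airway epithelium that hantaviruses use as a receptor. Pcdh1 had 0, 0, 2 and 1 peaks in DN 1, DN 2, DP 1 and DP 2. The DP-only region lay 802 bp from the gene end and ranked at 35.5% in DP 1 and 100% in DP 2. Pcdh12, a protocadherin of endothelium, had 3, 1, 2 and 2 peaks, but its shared region lay 76 bp from the end of the neighbouring gene Dele1. Pcdh18 had 2 peaks in DN 1 and none in the other lists.

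Type II cadherins held 9 DN-only and 6 DP-only regions. Cdh10, a neuronal type II cadherin, had 5, 9, 1 and 5 peaks in DN 1, DN 2, DP 1 and DP 2. It held 3 DN-only regions and 1 shared region, and all 4 lie in the gene's own span. The shared region (chr15:18821201-18821850) ranked at 3.56% and 2.19% in the DN lists and at 27.2% and 15.2% in the DP lists. The DN-only region next to it (chr15:18823101-18823900) ranked at 11.4% and 11.2%. Of these 2 neighbouring regions near the start of Cdh10, 1 was therefore held by all lists and 1 by the DN lists alone.

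Cdh12, another neuronal type II cadherin, had 16, 10, 2 and 15 peaks in DN 1, DN 2, DP 1 and DP 2. It was the member with both DN-only regions, 3, and a DP-only region, 1, the latter at a rank of 70.9% in DP 1 and 100% in DP 2. Cdh11, a cadherin of bone and mesenchyme, had 6, 4, 0 and 2 peaks, and its DN-only region (chr8:102780751-102781350) ranked at 20.7% and 8.11%. Cdh18 had 9, 10, 4 and 13 peaks and 1 DN-only region in its flank. Only the share, not the plain count, put Cdh10, Cdh12 and Cdh18 higher in both DN lists.

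Cdh5, or VE-cadherin, the adhesion molecule of endothelial junctions, had 6, 5, 1 and 2 peaks in DN 1, DN 2, DP 1 and DP 2. It held 1 DN-only region inside the gene (chr8:104127101-104127600), 1 in both DN lists and DP 2 that lay 2313 bp from its lower-coordinate end, and 1 shared region 1971 bp beyond the other end. No peak of any list lay within 1000 bp of an end of Cdh5. The other endothelial markers gave these counts. Pecam1, Kdr, Tek and Emcn together held 8, 2, 10 and 18 peaks, with no DN-only region at any of the 4 and a DP-only region at Pecam1.

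At the other end, Cdh24, a type II cadherin that binds catenins, had 0, 0, 5 and 5 peaks in DN 1, DN 2, DP 1 and DP 2. All of them fell in 4 DP-only regions. One (chr14:54641101-54642150) covers the Cdh24 promoter printed above, and each DP list had 2 peaks in it, the best at 32.0% in DP 1 and 10.5% in DP 2. The same region ends 11 bp from the neighbouring gene Acin1, so it lies at the ends of both genes. The other 3 lie at or inside neighbours. Psmb5, a proteasome subunit gene, has its end 5 bp from 1 of them, and 2 lie inside Acin1, which acts in RNA splicing. Cdh22 had 0, 0, 1 and 2 peaks and 1 DP-only region, 25224 bp inside the gene.

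The other type II members had no region restricted to 1 stage. Cdh8 had 4, 14, 5 and 14 peaks in DN 1, DN 2, DP 1 and DP 2, and Cdh20 had 1, 9, 2 and 12, so each was high in the second list of both groups. Cdh19 had 3, 3, 0 and 1 peaks, all in regions of 1 list. Cdh9 had 1, 4, 2 and 3, Cdh7 had 3, 0, 1 and 2, and Cdh6 had 0, 5, 0 and 1.

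Among type I cadherins, Cdh4, or R-cadherin of retina and brain, had 6, 8, 16 and 75 peaks in DN 1, DN 2, DP 1 and DP 2. The DP 2 peaks formed 62 regions, 58 of them in that list alone, and 40 of the 75 peaks were tied at the largest p-value. Recurrent regions were few: 2 were shared, 1 of them inside the neighbouring gene Taf4, 1 was DP-only (chr2:179662251-179663350), and 1 at the gene's own end was held by both DN lists and DP 2. Without Cdh4, the single genes held 58.6 ± 9.30 peaks per 10000 in DN and 31.6 ± 9.12 in DP (SD, n = 2 each). The high count of DP 2 at Cdh4 thus worked against the direction of the whole group.

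Cdh15, or M-cadherin of muscle, had 0, 0, 2 and 3 peaks in DN 1, DN 2, DP 1 and DP 2, and 2 DP-only regions. One (chr8:122848101-122848550) covers the printed promoter, at a rank of 57.1% in DP 1 and 100% in DP 2, so these were weak peaks. Cdh2, or N-cadherin, had 4, 7, 2 and 4 peaks and 1 DN-only region 12879 bp outside the gene. Cdh3, or P-cadherin, had 2 peaks in DP 2 and none elsewhere.

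Cdh1 encodes E-cadherin, the adhesion protein of epithelia, including thymic epithelium. It had 3, 1, 4 and 4 peaks in DN 1, DN 2, DP 1 and DP 2. A region 25 bp from its lower-coordinate end (chr8:106603101-106603650) was held by DN 2 and DP 2 and by neither of the other lists, and so did not follow the stage. A region 30175 bp inside the gene (chr8:106633251-106633800) was held by both DP lists and DN 1, and the third was at the neighbour Tango6. Of the lymphocyte proteins that bind E-cadherin, the integrin chain genes Itgae and Itgb7 had 2, 0, 3 and 4 peaks and 3, 1, 5 and 4 peaks, each with 2 DP-only regions, and Klrg1 had 3, 0, 1 and 0 and none. Of 6 genes of E-cadherin repressors, 2 (33.3%) had a DP-only region, near the 32.9% of all genes, and 1 a DN-only region, and Snai1 had 0, 1, 5 and 4 peaks and 2 DP-only regions.

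Cdh23, the partner of Pcdh15 in the tip links of hair cells, held more DP-only regions than any other member. Its window had 4, 1, 14 and 15 peaks in DN 1, DN 2, DP 1 and DP 2, and 8 DP-only regions. Vsir, which encodes the immune checkpoint protein VISTA, lies wholly inside Cdh23, and Psap, the gene of prosaposin, lies next to it. Of the 8 regions, 3 lay inside Vsir, 1 inside Psap and 4 elsewhere in or at Cdh23. Peaks inside Vsir numbered 1, 0, 6 and 5, and peaks elsewhere in the window 3, 1, 8 and 10, so both portions were higher in each DP list. The 4 outside the other genes were chr10:60305151-60305750, chr10:60442201-60442850, chr10:60691501-60692100 and chr10:60696901-60697400, the last 637 bp from the higher-coordinate end of Cdh23, which is its annotated 5′ side. A further gene, Gm17455 (chr10:60399493-60403559), lies inside Vsir. The data do not say which of these genes any of the regions serves.

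**Figure D4:**
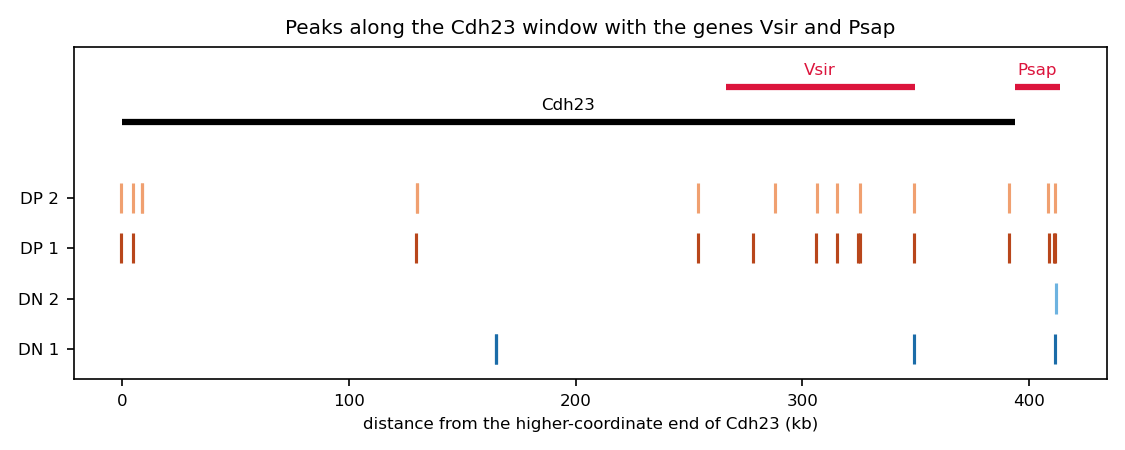
Peaks of the 4 lists along the Cdh23 window, by distance from the higher-coordinate end of Cdh23 in kb, with the spans of Cdh23, Vsir and Psap. Each tick is 1 peak. The DP lists held 14 and 15 peaks, spread over Vsir, Psap and the 5′ side of Cdh23, and the DN lists held 4 and 1.

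Cdh13, or T-cadherin, which is anchored in the membrane by a lipid, had 32, 32, 7 and 69 peaks in DN 1, DN 2, DP 1 and DP 2. As at Cdh4, the DP lists differed widely, and 62 of the 66 DP 2 regions were in that list alone. One region was DN-only, 1 was held by both DN lists and DP 2, and the shared region lay 138 bp from the end of the neighbour Hsbp1. Cdh16, a kidney cadherin, had 4, 5, 6 and 4 peaks and the most shared regions of any single member, 4. One of these lay 935 bp from its own end and 3 lay at the ends of Pdp2, Rrad and Ciao2b. Cdh17, a cadherin of liver and intestine, had 3 peaks in DN 1 and none in the other lists.

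Cdh26 had 4, 3, 3 and 6 peaks in DN 1, DN 2, DP 1 and DP 2, with a shared region in its flank and a DN-only region at the end of the neighbour Ppp1r3d. Cdhr3, an airway gene whose product is the receptor of rhinovirus C, had 1, 1, 2 and 2 peaks and 1 DN-only region inside the gene (chr12:33048301-33048850). At the 2 brush-border genes of the intestine, the regions held by more than 1 list lay at neighbouring genes. Cdhr2 had 3, 1, 2 and 3 peaks, with its shared region at Rnf44, and Cdhr5 had 1, 0, 3 and 2 peaks, with a region in both DP lists and DN 1 at Irf7, an interferon regulator. Cdhr4 had 2, 0, 4 and 4 peaks, with DP-only regions at Uba7 and Inka1. Cdhr1, a photoreceptor gene, had 1 peak in DN 1 and none elsewhere.

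The clustered protocadherins on chromosome 18 held few peaks. The 3 clusters together had 10, 9, 8 and 15 peaks in DN 1, DN 2, DP 1 and DP 2, or 2.58, 2.72, 2.01 and 2.13 per 10000 peaks. The difference, DP minus DN, was -0.574 per 10000, with no overlap and an exact permutation p of 0.333. The clusters did not share this direction: Pcdhg, which held most of the peaks, had 1.55 and 1.51 per 10000 in DN 1 and DN 2 and 1.76 and 1.56 in DP 1 and DP 2. Per megabase the clusters held 12.3, 11.0, 9.81 and 18.4 peaks, below the density over all gene windows in each list. Of 25 merged regions, 2 were DN-only, 4 were shared, none was DP-only, 1 was held by DN 1 and DP 2, and 18 were in 1 list.

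**Figure D5:**
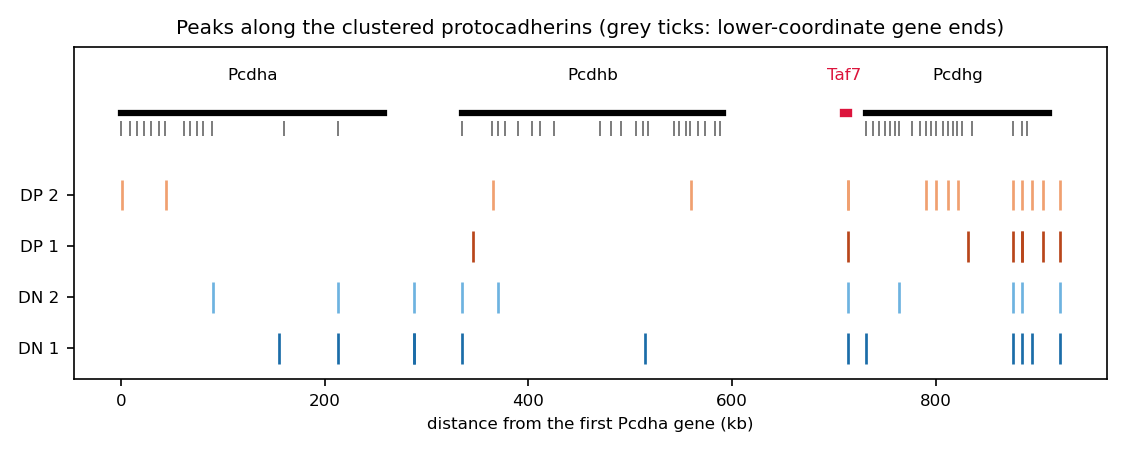
Peaks of the 4 lists along the Pcdha, Pcdhb and Pcdhg clusters, by distance from the first Pcdha gene in kb. Black bars are the cluster spans, grey ticks the lower-coordinate gene ends, and Taf7 is a gene between Pcdhb and Pcdhg. All 4 lists held peaks at Taf7 and at Pcdhgc3 and Pcdhgc4 in Pcdhg, Pcdha and Pcdhb had 0 to 2 peaks per list, and 1 site between Pcdha and Pcdhb had peaks in both DN lists.

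In Pcdha, with 2, 2, 0 and 2 peaks in DN 1, DN 2, DP 1 and DP 2, the DN-only region (chr18:37143451-37144100) lay 97 bp from the start of Pcdhac2. Pcdhac2 is a C-type gene, one of those known to be used by most neurons and not by random choice. Both of its peaks were tied at the largest p-value of their list. In Pcdhb, with 2, 2, 1 and 2 peaks, the DN-only region (chr18:37264701-37265500) lay 102 bp from Pcdhb1, the first gene of the cluster, at a rank of 27.4% in DN 1 and 18.7% in DN 2. Pcdha and Pcdhb thus each had 1 site held by both DN lists and by neither DP list.

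Pcdhg had 6, 5, 7 and 11 peaks in DN 1, DN 2, DP 1 and DP 2, and all 4 shared regions of the clusters. Of these, 2 lay at C-type genes, 85 bp from the end of Pcdhgc3 (chr18:37805951-37806700) and 171 bp from that of Pcdhgc4 (chr18:37814851-37815650). The region at Pcdhgc3 ranked at 7.75% in DN 1, 5.65% in DN 2, 14.1% in DP 1 and 12.2% in DP 2. The other 2 lay at Taf7, which encodes a subunit of the general transcription factor TFIID, and inside Diaph1, which encodes a formin. A peak within 1000 bp of a gene end was found at 5, 7, 2 and 9 of the 57 clustered genes. DP 2 alone had peaks at 4 genes, Pcdhgb4, Pcdhgb5, Pcdhgb6 and Pcdhgb7, of rank 61.5% or 100%, and no other list had a peak at any of them. Pcdhga8, Pcdhga9 and Pcdhga10, which lie between them, had no peak within 1000 bp of an end in any list.

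Gene ends were compared over all 97 members, because the gene table gives no strand. A peak lay within 1000 bp of either end of 12, 16, 10 and 22 members in DN 1, DN 2, DP 1 and DP 2. This was 14.4 ± 2.92% of members in DN and 16.5 ± 8.75% in DP (SD, n = 2 each), and the groups overlapped, with an exact permutation p of 1. Single members alone gave 17.5, 22.5, 20 and 32.5%, and clustered members 8.77, 12.3, 3.51 and 15.8%, with overlap of the groups in both sets. Over all genes the shares were 37.9, 26.7, 47.4 and 50.6%, each above the share of the members in the same list. Both DN lists and neither DP list held a peak at 3 members, Pcdh8, Pcdhac2 and Pcdhb1, beside 0.795% of all genes. Pcdh9 is not among them, since the DN-only region over its start lies 2009 bp from its gene end. Both DP lists and neither DN list held a peak at 4, Cdh15, Cdh23, Cdh24 and Pcdh1, beside 10% of all genes. These were 4 of the 40 single and 0 of the 57 clustered genes. All 4 lists held a peak at Cdh4, Cdh16, Pcdhgc3 and Pcdhgc4, beside 22.3%. No list held a peak at the ends of 65 members, 23 of the 40 single and 42 of the 57 clustered genes, beside 42.9% of all genes.

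Genes that act with cadherins were counted in the same way. Of all genes, 7.16% had a DN-only, 32.9% a DP-only and 37.6% a shared region. Of 12 genes of catenins and adaptors, 4 (33.3%) had a DN-only, 5 (41.7%) a DP-only and 7 (58.3%) a shared region. Their median span was 120 kb. Of all genes of 100 kb or longer, 27.1% had a DN-only and 41.1% a DP-only region. The long genes Ctnna2 (32, 27, 8 and 18 peaks in DN 1, DN 2, DP 1 and DP 2) and Ctnnd2 (17, 6, 10 and 23) had 3 DN-only regions each, while Jup and Arvcf had 2 DP-only regions each and no DN-only one. Of 17 other members of the cadherin superfamily, 3 (17.6%) had a DN-only and 5 (29.4%) a DP-only region, and Celsr1, a planar polarity gene with 2, 0, 15 and 10 peaks, led with 5 DP-only regions. Of 11 genes of CTCF, cohesin and regulators of the clusters, 8 (72.7%) had a shared region, 2 (18.2%) a DP-only and 1 (9.09%) a DN-only region. Ctcf itself had 5, 2, 9 and 8 peaks and 2 shared regions.

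Marker genes were read in the same lists. The 6 DP-stage genes held 10, 8, 57 and 58 peaks in DN 1, DN 2, DP 1 and DP 2, and Cd8a, which DN cells lack at the surface, had 0, 0, 9 and 10. The 6 genes of the T lineage held 15, 6, 45 and 51, each peak counted once where windows overlap. The 6 DN-stage genes were not higher in the DN lists, with 21, 4, 34 and 32 peaks, no DN-only region and a DP-only region at each of the 6, and Il2ra, which encodes CD25, had 9, 2, 10 and 11. Genes of thymic epithelium and stroma, 8 in number, held 6, 2, 15 and 16 peaks with no DN-only region. The 8 B cell and myeloid genes held 8, 5, 13 and 17, with Ms4a1, Itgax, Csf1r and Lyz2 at 0 in all lists. In each of these sets 3 of the 8 genes (37.5%) had a DP-only region, beside 32.9% of all genes. The window of Psmb11, 1 of the epithelial genes, overlaps that of Cdh24, and its 2 DP-only regions are also counted at Cdh24. By share of the list, all 6 DP-stage and all 6 T lineage genes were higher in both DP lists, beside 24.4% of all genes. Of the 6 DN-stage genes 3 were, and Il2ra, Notch1 and Kit overlapped. The DN lists therefore held fewer peaks than the DP lists at DP-stage and T lineage genes, by count and by share. They had a peak at the ends of fewer genes as a whole. A larger share of their peaks lay in the windows of the single cadherin and protocadherin genes. The part that the make-up of the lists had in the cadherin counts was not tested.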

How the data were processed

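ATAC-seq peak lists of 2 DN and 2 DP thymocyte samples were used. Per the submitters' processing notes, Bowtie2, Picard and mm10 were used; roles, read filters, insertion shift and caller settings are not stated there. Each deposited list gives, per peak, the position and the authors' p-value, used only to rank peaks within a list. Peaks were called per sample, on a 50 bp grid, at least 300 bp wide; 33 peaks on the mitochondrial genome were left out. Between any pair of lists, 1.33 to 6.25% of peaks (of the list with fewer) matched to the base.

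Gene spans came from RefSeq GRCm38.p6; 3 read-through models over the clusters were left out. Peaks went to the nearest member. Start sites were planned, but the promoter table held 27 members, so gene ends replaced them. Exon structure was not used here. Differences of shares were tested with two-sided exact permutation tests over 3 splits (Python 3.11.15, pandas 2.3.3, scipy 1.17.1). The classing of regions was checked on simulated peaks set well apart, so crowded peaks and the choice among members were not tested. Members, gene lists and tests were chosen with earlier results of these data known. Named are all members with a DN-only, DP-only or shared region, the 12 with most peaks, and up to 4 genes per further list; other members are given by their counts. Same-numbered lists deviated together over 18938 genes (r = 0.349), but with 2 pairs the numbers were not taken to pair samples. Alternatives changed list length, window, overlap, gene-end distance and neighbouring genes, or left out each list.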

Additional observations from a re-analysis of the deposited data

How the results depend on the processing

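With 2 lists per group no difference can pass a threshold, and depth is unknown. The share of peaks in single-gene windows stayed lower in DP under every alternative run, and without each list in turn the difference ran from -31.4 to -11.9 per 10000 peaks; for the clusters it ran from -0.644 to -0.504. Without widening of gene spans the single-gene difference was -18.0, with overlap of the lists (p = 0.667, exact permutation test). The cluster difference reached -1.57 in the best-ranked 50%, -1.21 with equal list length and -1.46 in 50 kb windows, all negative. In the best-ranked 50% of each list, 14 DN-only, 12 DP-only and 9 shared regions remained. With lists limited to the shortest length, 13 regions were DP-only. Without widening of gene spans there were 10 DP-only and 3 shared regions, and windows of 10 and 50 kb gave 7 and 22 shared regions. Without regions at or inside other genes, an alternative chosen after seeing the data, 11 were DP-only and 6 shared. With 1 list left out, recurrence in a group of 1 is presence, and the counts ran from 24 to 171 DN-only, 21 to 262 DP-only, 14 to 23 shared, and 9 to 16 recurrent regions in the clusters. The gene-end difference (DP minus DN) turned to -1.03 percentage points in the best-ranked 50% and to -3.61 with equal list length, and ran from -4.12 to 8.25 without each list. DN-only minus DP-only counts turned to -1 at Cdh26 (best-ranked 50%) and -1 at Cdhr3 (50 kb). With equal list length they were 0 at Cdh15, Pcdh1 and Pcdh17. They were also 0 at Pcdh10 with merging within 250 bp and at Cdh4 and Pcdha with a required overlap of 50%. In windows of 10 kb they were 0 at Cdh2 and Cdh26. Without 1 list they spanned -59 to 4 at Cdh4, -21 to 40 at Pcdh15, -1 to 1 at Cdhr3, -11 to 16 at Pcdh9, -1 to 6 at Cdh10, -11 to 15 at Cdh12, -10 to 10 at Cdh18, -3 to 7 at Cdh2, -2 to 2 at Cdh26, -3 to 10 at Pcdh7, -1 to 5 at Cdh11, -61 to 28 at Cdh13, and -1 to 2 at Pcdha and Pcdhb. Without 1 list they kept their sign at Cdh5, Cdh15, Cdh22, Cdh23 (-11 to -7), Cdh24 (-4 in each case), Cdhr4, Pcdh1, Pcdh8, Pcdh17 and Pcdh20. In the best-ranked 50%, however, the count was 0 at Cdh5, Cdh15, Cdh22, Pcdh1, Pcdh8, Pcdh17 and Pcdh20, and also at Cdh13, Cdh18 and Pcdha. Without widening it was 0 at Cdh15, Cdhr4, Pcdh1, Pcdh8 and Pcdh17, and also at Cdh2, Cdh18, Cdh26 and Pcdh10. DN-only regions were 48.1 to 64.9% of the regions restricted to 1 stage under the other list, window and overlap settings, beside 23.5 to 32.4% of all regions. With the replicate number as a block, the differences were -21.6, -0.574 and 2.06 for single genes, clusters and gene ends, with sign-flip p of 0.5, 0.5 and 1. The cause of the changes was not tested.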

Other observations

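Between the Pcdha and Pcdhb clusters, outside both windows, lay 1 further DN-only region (chr18:37218101-37218650), noticed after the values were seen. It was the only region of any list between the 2 clusters, 29.5 kb beyond the end of Pcdha and 46.6 kb before Pcdhb. DN 1 held 2 peaks in it and DN 2 held 1, with a best rank of 32.2% and 11.2%, and neither DP list held a peak. Distant enhancers of Pcdha are known to lie beyond its constant exons, and whether this region is one of them was not tested.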
